A study of Homo sapiens with 3 samples.

Results

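The 45 genes described here encode the enzymes, carriers and membrane proteins of the lysosome, together with the MiT/TFE transcription factors MITF, TFEB and TFE3 and the autophagy receptor SQSTM1. They were chosen by gene symbol, with older and newer symbols of a gene counted as a single gene and rows that join several gene names included, and all 45 were found among the 22714 gene names in the data. RNA of TC32, a human Ewing sarcoma cell line, was sequenced in 3 libraries. The first came from cells with a knockdown of EWS-FLI1, the fusion transcription factor that drives this tumour. The second came from cells given 3 µM of a small molecule made to inhibit EWS-FLI1, called YK after the title of its library, for 15 h in DMSO, and the third from wild-type control cells. All 3 were grown in RPMI with 10% serum. The labels do not say whether the control received DMSO or a control hairpin, how the hairpin was delivered, or how long the knockdown lasted. With 1 library per group there was no spread between replicates and no test, so each statement below compares these libraries and not the conditions.

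Lysosomes are acidic organelles in which hydrolases break down proteins, glycans and lipids that arrive by endocytosis and autophagy. A proton pump, the V-ATPase, acidifies the lumen, and heavily glycosylated proteins such as LAMP1 and LAMP2 line its membrane. MITF, TFEB and TFE3 bind E-box sequences in the promoters of many lysosomal genes, in what is known as the CLEAR network. When the kinase complex mTORC1 is active at the lysosome, it holds TFEB and TFE3 in the cytoplasm.

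The libraries differed in overall scale before any gene was considered. The median named gene had a 4.42-fold lower deposited FPKM (fragments per kilobase of transcript, relative to all mapped fragments) in the knockdown library than in the control, and a 6.36-fold lower one with YK. Values are therefore given as scaled FPKM, each library multiplied so that the median of 9883 named genes was equal. A difference is the difference of log2(scaled FPKM + 1) between libraries, which understates the ratio of scarce genes. A gene was compared where its mean scaled FPKM was at least 1 and was called higher or lower where this difference was at least 1 in size. Where 2 differences stand in parentheses after a gene's levels, the knockdown against the control comes before YK against the control, and a single one is the knockdown against the control. SE stands for counting error only, from an estimate of the fragments behind each value, since the files give no counts and depth is otherwise unknown. In the knockdown library the difference also varied with expression level: over 5 equal groups of genes ordered from scarce to abundant, its median was 0.61, 0.47, 0.11, -0.44 and -0.89. FLI1, which supplies the second portion of the fusion, had 2.13 scaled FPKM in the knockdown library, 17.6 with YK and 21.4 in the control. Of 5 markers of Ewing sarcoma cells, 4 were compared, and FLI1 (-2.84) and NR0B1 (-2.76) were lower in the knockdown library, while EWSR1 (-0.45) and NKX2-2 (0.43) lay within the threshold. The other marker, CD99, was listed at 0 in all 3 libraries. So was SLC25A6, a mitochondrial carrier that nearly every cell uses and that lies with CD99 in the region shared by the X and Y chromosomes, so these 0 values are no measure of expression.

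Lysosomal genes were widely higher in the knockdown library. Of the 45 genes, 39 passed the filter on low values, and 29 of these were higher than in the control, none was lower and 10 lay within the threshold. Across all 9731 genes compared, 18.7% were higher and 17.3% lower by the same rule. The median difference was 1.79 for the lysosomal genes and 0.02 for all genes. With YK, only GPNMB was higher than in the control and only LGMN was lower, against 2.76% of all genes higher and 1.72% lower, and the median difference was 0.17 for the lysosomal genes and 0.04 for all genes. CTSF, CTSO, GAA, MAN2B1, MCOLN1 and MITF passed the filter through the knockdown library alone and so had to have their highest value there. All of them but GAA passed the threshold. Where a gene instead had to reach 1 scaled FPKM with YK, a library this comparison does not use, 24 of 33 lysosomal genes were higher in the knockdown library and 0 lower, against 14.9% of all genes higher and 18% lower. With no filter, 30 of 45 were higher and none was lower, against 9.18% of all gene names higher and 7.44% lower.

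**Figure D1:**
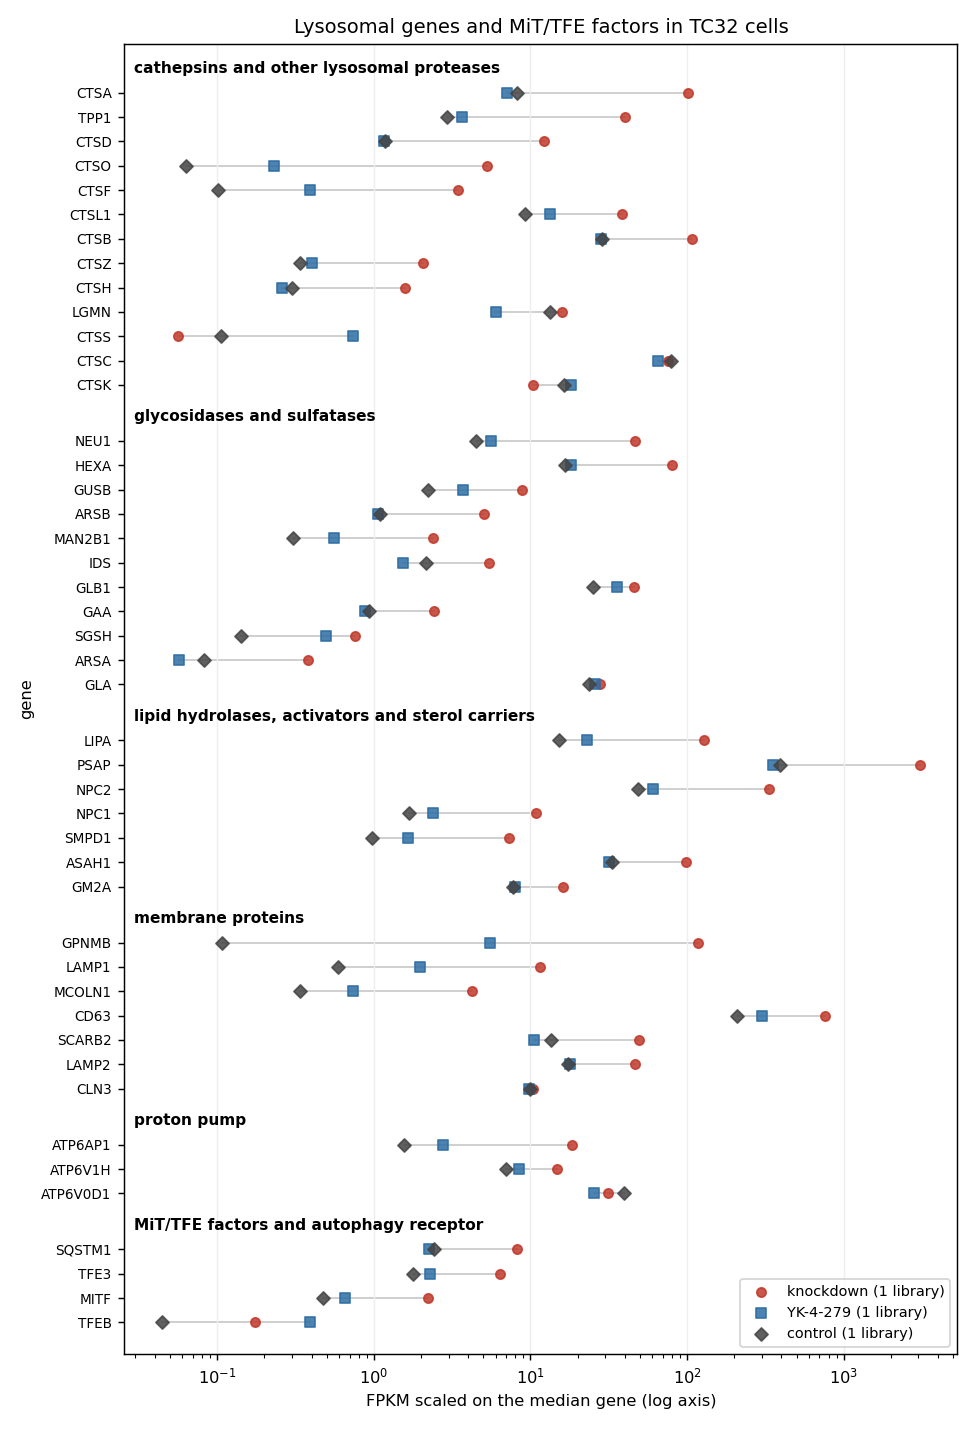
Scaled FPKM (log axis) of the 45 genes in the knockdown (red circles), YK (blue squares, with the compound's full name in the legend) and control (dark diamonds) libraries, 1 library each, grouped by role. For most genes the knockdown library stands alone on the right and the other 2 lie close together, while CTSC, CTSK, GLA, CLN3 and ATP6V0D1, among others, show no such gap.

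These counts depend on the scaling. On the deposited FPKM with no scaling, 71.4% of all genes were lower in the knockdown library than in the control and 3.03% higher, while of the 37 lysosomal genes compared 8 were higher and 8 lower. The median difference on that scale was -0.13 for the lysosomal genes and -1.76 for all genes. CTSA, CTSD, CTSF, CTSO, TPP1, NEU1, LAMP1, GPNMB and ATP6AP1 were higher by at least 1 on both scales, where CTSF falls below the filter on deposited values. For NEU1 this rests on what is joined with another gene. When the running median of the difference over genes of like level was subtracted, 28 lysosomal genes were higher and none was lower, against 15% of all genes higher and 10.2% lower, and 24 of the 29 genes above stayed past the threshold, while GLA (1.02), GLB1 (1.65), GM2A (1.28) and ATP6V1H (1.29) passed it in addition. Every gene of the 29 kept its sign there.

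**Figure D2:**
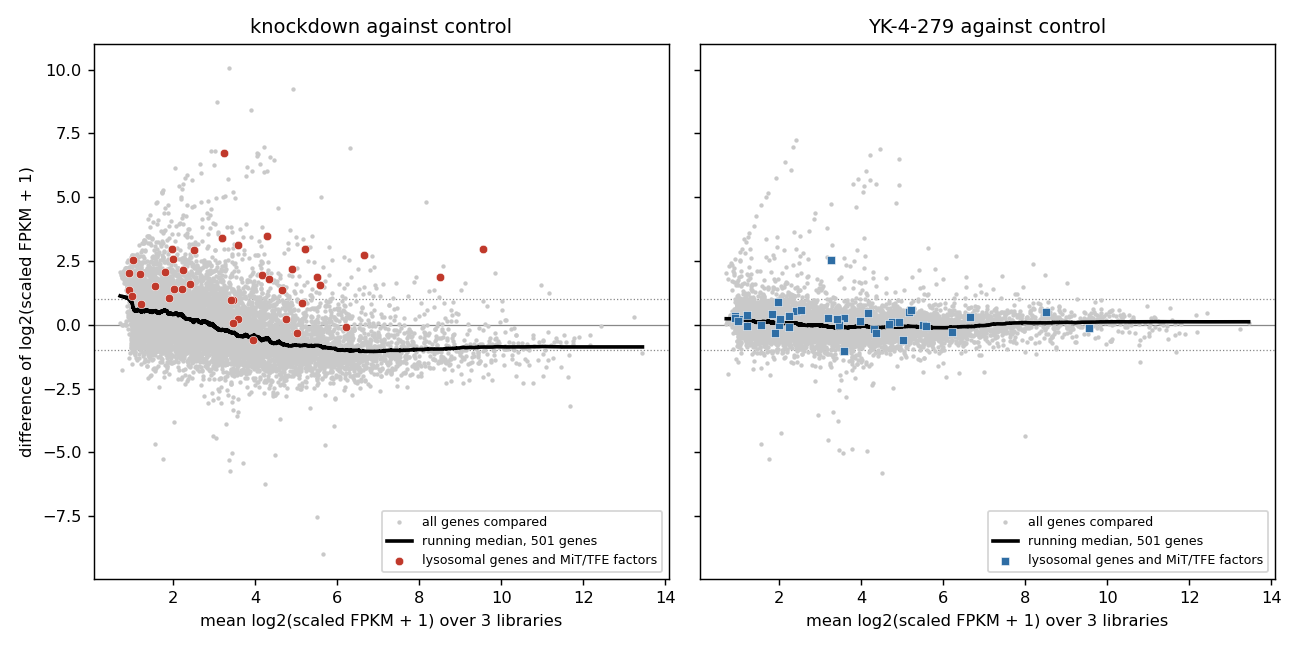
Difference of log2(scaled FPKM + 1) from the control against mean log2(scaled FPKM + 1) over the 3 libraries, for all genes compared (grey), the lysosomal genes (coloured) and the running median (line), with thresholds dotted. In the knockdown panel 38 of the 39 lysosomal genes lie above the running median, which falls with level, and with YK most lie near it, with GPNMB well above and LGMN below.

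GPNMB, a lysosomal and cell-surface glycoprotein known as a target of MITF and TFE3, differed most. Its deposited FPKM was 82.0 in the knockdown library, 2.60 with YK and 0.329 in the control, so it was higher in both treated libraries before any scaling. Scaled, it had 118 FPKM in the knockdown library, 5.51 with YK and 0.107 in the control. The difference from control was 6.75 (SE 0.04) in the knockdown library and 2.56 (SE 0.06) with YK. The control value rests on an estimated 14 fragments, and with 0.1 added in place of 1 the differences were 9.16 and 4.76. The YK library lay between the others on a log scale and 4.19 below the knockdown library. The promoter stretches of GPNMB are shown because this gene stands apart in both treated libraries. They come from the RefSeq GRCh38.p14 table and are not the build the FPKM were made on. On the plus strand they span chr7:23246632-23246677 and chr7:23246693-23246738, with capitals marking CACATG, the complement of the E-box CATGTG.
GPNMB: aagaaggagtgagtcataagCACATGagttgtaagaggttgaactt
GPNMB: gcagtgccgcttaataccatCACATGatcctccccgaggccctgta

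Cathepsins and the other proteases of the lysosome break down proteins. Of these 13 genes, 10 were compared, 7 were higher in the knockdown library and none was lower, with a median difference of 1.97. With the filter on the YK library 5 of 8 were higher, which leaves out CTSF and CTSO. Among all genes, 18.7% were higher and 17.3% lower, or 14.9% and 18% with the filter on the YK library. CTSA, the carboxypeptidase that also stabilises sialidase and beta-galactosidase, had 101 scaled FPKM in the knockdown library, 7.13 with YK and 8.16 in the control (differences 3.48, SE 0.04, and -0.17, SE 0.06). TPP1, the tripeptidyl peptidase lost in a childhood form of Batten disease, had 40.1 in the knockdown library, 3.65 with YK and 2.91 in the control (3.39, SE 0.05, and 0.25, SE 0.06). In both genes the YK and control libraries were close and the knockdown library was about an order of magnitude higher. CTSD, the main aspartic protease, had 12.2 in the knockdown library, 1.16 with YK and 1.18 in the control, a difference of 2.60 (SE 0.08) for the knockdown. CTSB, an abundant cysteine cathepsin, had 107 in the knockdown library, 28.3 with YK and 28.8 in the control (1.86, SE 0.02). The cysteine cathepsin CTSL, listed as CTSL1, had 38.2 in the knockdown library, 13.3 with YK and 9.26 in the control (1.93 and 0.48). For CTSB and CTSL the deposited values ran the other way, with differences of -0.25 and -0.10, so their call rests on the scaling.

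The scarce cysteine cathepsins CTSF and CTSO were also highest in the knockdown library, but they passed the filter through that library alone. CTSF had 3.45 scaled FPKM in the knockdown library, 0.394 with YK and 0.101 in the control, and CTSO had 5.25, 0.230 and 0.0633 in the knockdown, YK and control libraries, giving knockdown differences of 2.01 and 2.55. Both rested on about 9 or 10 estimated fragments in the control. Not every protease followed. CTSC, which activates serine proteases of immune granules, had 75.4 in the knockdown library, 65.1 with YK and 79.1 in the control (-0.07 and -0.28). CTSK, the collagen-degrading cathepsin of osteoclasts, was read only in a row joined with ARNT, where the sum was 10.3 in the knockdown library, 18.1 with YK and 16.3 in the control (-0.61 and 0.14), so its own level is uncertain.

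LGMN, the asparaginyl endopeptidase that processes other cathepsins, was the gene lower with YK. It had 15.9 scaled FPKM in the knockdown library, 6.02 with YK and 13.3 in the control. Its differences were 0.24 (SE 0.05) in the knockdown library and -1.02 (SE 0.07) with YK, which lies within its counting error of the threshold and became -0.98 with upper quartile scaling and -0.93 with the level trend subtracted. The other proteases were too scarce to be compared. CTSH had 1.58 in the knockdown library, 0.257 with YK and 0.299 in the control, and CTSZ had 2.06 in the knockdown library, 0.40 with YK and 0.337 in the control. CTSS, typical of antigen-presenting cells, had 0.0558 in the knockdown library, 0.739 with YK and 0.105 in the control.

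**Figure D3:**
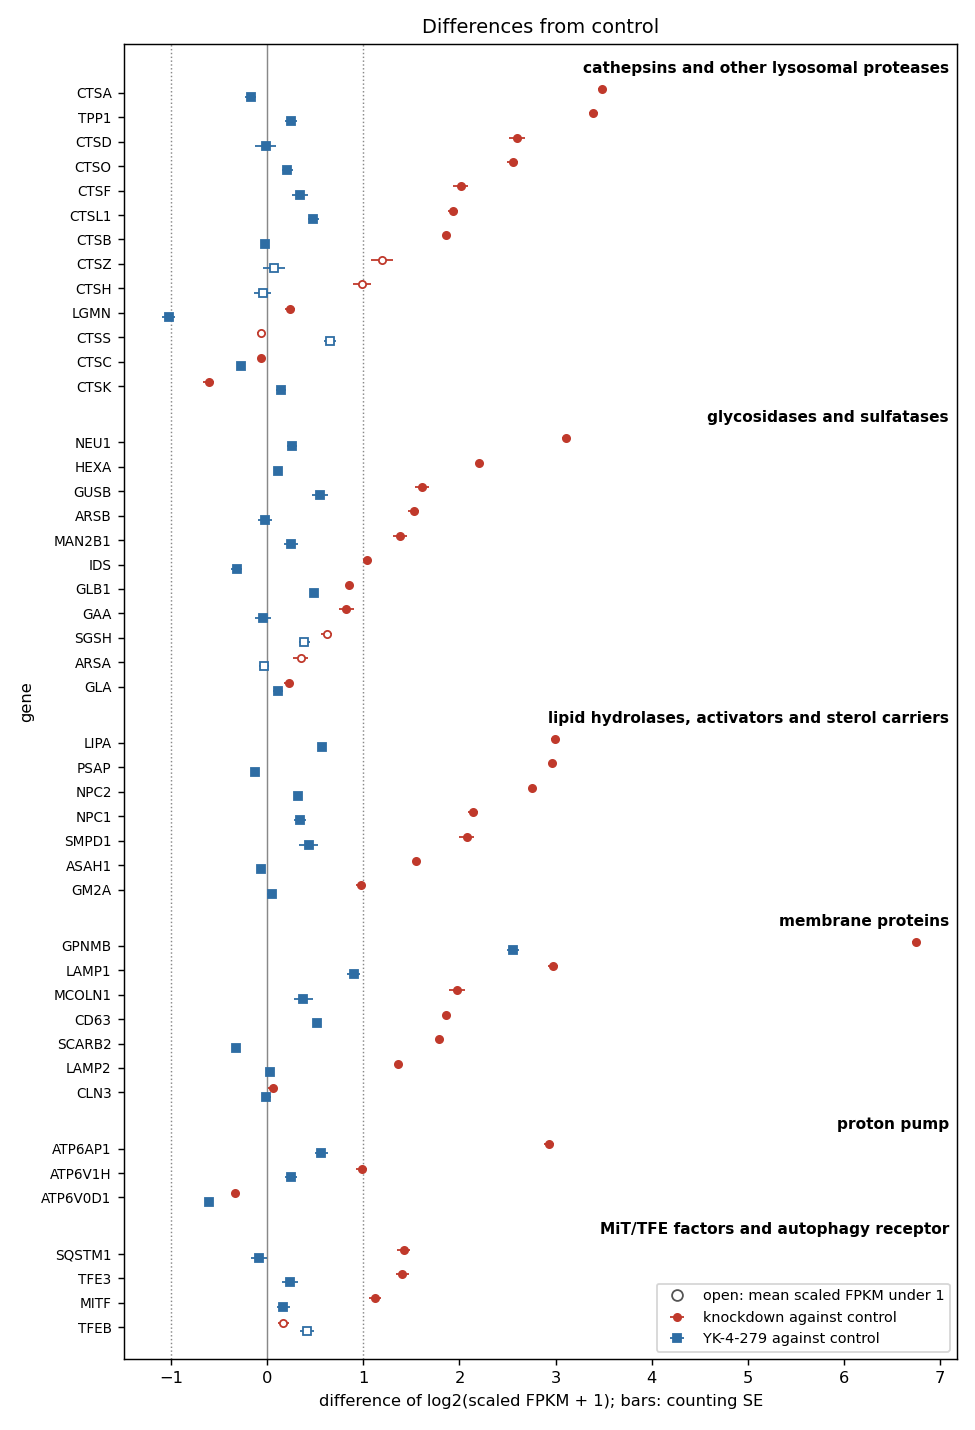
Difference of log2(scaled FPKM + 1) from the control for each gene in the knockdown (red circles) and YK (blue squares) libraries, with bars for the counting SE, dotted lines at the threshold of 1 and open symbols for genes below the filter. GPNMB lies farthest right in each library, at 6.75 (knockdown) and 2.56 (YK), and the other YK points lie between -1.02 and 0.90.

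Glycosidases and sulfatases take apart glycoproteins, glycolipids and glycosaminoglycans, and their loss causes many lysosomal storage diseases. Of 11 genes, 9 were compared, 6 were higher in the knockdown library and none was lower (median 1.38). With the filter on the YK library 5 of 7 were higher, which leaves out GAA and MAN2B1. Under these 2 filters 18.7% and 14.9% of all genes were higher. NEU1, the lysosomal sialidase that works in a complex with CTSA, had 46.5 scaled FPKM in the knockdown library, 5.57 with YK and 4.50 in the control (3.11, SE 0.04, and 0.26, SE 0.05). Its value is the sum of 8 rows, since it lies in the major histocompatibility complex and is listed on several haplotypes, and 1 row is joined with SLC44A4. When joined rows were left out, 26 of the 29 higher calls kept their sign. The others were NPC2 and IDS, which have only a joined row, and NEU1. The NEU1 difference therefore rests on what is joined with SLC44A4, and its own level is uncertain. HEXA, the alpha subunit of beta-hexosaminidase A that is deficient in Tay-Sachs disease, had 79.7 in the knockdown library, 18.0 with YK and 16.5 in the control, so that with 1 added it was 4.60-fold higher in the knockdown library (SE 0.02 on the log2 scale). As read here, NEU1 and HEXA were far apart in level in the control and both stood well above it in the knockdown library.

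GUSB, beta-glucuronidase, had 8.79 scaled FPKM in the knockdown library, 3.70 with YK and 2.21 in the control (1.61 and 0.55). ARSB, an arylsulfatase of dermatan sulfate breakdown, had 5.01 in the knockdown library, 1.06 with YK and 1.09 in the control (1.52 and -0.02). MAN2B1, lysosomal alpha-mannosidase, had 2.40 in the knockdown library, 0.553 with YK and 0.306 in the control (1.38 and 0.25). IDS, iduronate 2-sulfatase, was read in a row joined with LOC100131434, which had 5.48 in the knockdown library, 1.53 with YK and 2.16 in the control (1.04 and -0.32). The calls of ARSB, MAN2B1 and IDS did not outlast subtraction of the level trend, which left 0.98, 0.39 and 0.59. On the deposited values GUSB was at -0.13 and IDS at -0.67.

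The remaining glycosidases lay within the threshold. GLB1, the beta-galactosidase joined here with TMPPE, had 46.0 scaled FPKM in the knockdown library, 35.6 with YK and 25.1 in the control (0.85 and 0.49). GAA, the glycogen-degrading enzyme of Pompe disease, had 2.42 in the knockdown library, 0.883 with YK and 0.937 in the control (0.82 and -0.04). GLA, alpha-galactosidase A of Fabry disease, had 27.9 in the knockdown library, 25.7 with YK and 23.8 in the control (0.22 and 0.11). The sulfatases ARSA and SGSH stayed under 1 in every library, with ARSA at 0.379 in the knockdown library, 0.0573 with YK and 0.0829 in the control, and SGSH at 0.754 in the knockdown library, 0.493 with YK and 0.142 in the control.

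Among genes of lipid breakdown and sterol export, all 7 were compared and 6 were higher in the knockdown library (median 2.14), against 18.7% of all genes. PSAP, the precursor of the saposins that present sphingolipids to their hydrolases, was the most abundant of the 45 genes in every library. It had 3051 scaled FPKM in the knockdown library, 356 with YK and 389 in the control (2.97, SE 0.01, and -0.13, SE 0.01), which was 56.8% (knockdown), 32.1% (YK) and 37.6% (control) of the summed scaled FPKM of the 45 genes. Its deposited FPKM was 2119 in the knockdown library, 168 with YK and 1200 in the control, so this gene was higher in the knockdown library without scaling too, by 0.82. LIPA, lysosomal acid lipase, which frees cholesterol from its esters, had 128 in the knockdown library, 23.1 with YK and 15.2 in the control (2.99, SE 0.03, and 0.57, SE 0.04).

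NPC1 and NPC2 pass that cholesterol out of the lysosome, and both were higher in the knockdown library. NPC1 had 10.8 scaled FPKM in the knockdown library, 2.39 with YK and 1.67 in the control (2.14 and 0.34). NPC2, whose row is joined with the microRNA gene MIR4709, had 334 in the knockdown library, 60.9 with YK and 48.7 in the control (2.75 and 0.32). SMPD1, acid sphingomyelinase, had 7.28 in the knockdown library, 1.65 with YK and 0.968 in the control (2.07 and 0.43). ASAH1, acid ceramidase, which acts on the product of SMPD1, had 98.0 in the knockdown library, 31.5 with YK and 32.9 in the control (1.54 and -0.06), and its deposited values gave -0.57 for the knockdown. GM2A, the activator that HEXA needs for ganglioside GM2, came just short of the threshold, with 16.1 in the knockdown library, 7.98 with YK and 7.70 in the control (0.97 and 0.05).

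Of the 7 membrane protein genes, all were compared and 6 were higher in the knockdown library (median 1.86), GPNMB among them. With the filter on the YK library 5 of 6 were higher, which leaves out MCOLN1. The shares of all genes higher were 18.7% and, with the filter on the YK library, 14.9%. LAMP1, a major glycoprotein of the lysosomal membrane, had 11.5 scaled FPKM in the knockdown library, 1.96 with YK and 0.589 in the control (2.98, SE 0.05, and 0.90, SE 0.07). After GPNMB, LAMP1 had the next highest YK difference of the 45 genes, and with 0.5 or 0.1 added in place of 1 it passed the threshold at 1.18 or 1.58. Its partner LAMP2 was more abundant and differed less, with 46.2 in the knockdown library, 17.8 with YK and 17.4 in the control (1.36 and 0.03). CD63, a tetraspanin of late endosomes and exosomes, had 763 in the knockdown library, 300 with YK and 209 in the control (1.86 and 0.52).

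SCARB2, the receptor that carries glucocerebrosidase to the lysosome, had 49.2 scaled FPKM in the knockdown library, 10.6 with YK and 13.5 in the control (1.79 and -0.32). MCOLN1, the calcium channel TRPML1, had 4.25 in the knockdown library, 0.735 with YK and 0.335 in the control (1.98 and 0.38). CLN3, mutated in juvenile Batten disease, was level across the libraries, with 10.4 in the knockdown library, 9.86 with YK and 9.93 in the control (0.06 and -0.01). For LAMP2, CD63 and SCARB2 the deposited values gave knockdown differences of -0.72, -0.28 and -0.28.

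Genes of the proton pump varied in their difference from the control. ATP6AP1, an accessory subunit, had 18.5 scaled FPKM in the knockdown library, 2.77 with YK and 1.55 in the control (2.93, SE 0.05, and 0.56, SE 0.07). ATP6V1H, a subunit of the cytosolic sector, had 14.7 in the knockdown library, 8.46 with YK and 6.97 in the control (0.98 and 0.25). ATP6V0D1, a subunit of the membrane sector, had 31.2 in the knockdown library, 25.6 with YK and 39.6 in the control (-0.33 and -0.61). Of 14 other pump subunits compared, 4 were higher and 2 were lower in the knockdown library, with a median of -0.0018. Across all genes compared, 18.7% were higher and 17.3% lower. The highest were ATP6V0C at 1.97 and ATP6V0E1 at 1.38, and the lowest were ATP6V1F at -1.32 and ATP6V1G2 at -1.22. ATP6V1G2 was read only in rows joined with DDX39B, so its own level is uncertain. With the level trend subtracted, 6 of the 14 were higher and none was lower, against 15% of all genes higher and 10.2% lower. None of the 14 passed the threshold with YK.

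The transcription factors themselves were scarce. TFE3 had 6.36 scaled FPKM in the knockdown library, 2.27 with YK and 1.78 in the control (1.41, SE 0.07, and 0.24, SE 0.08). MITF had 2.21 in the knockdown library, 0.658 with YK and 0.475 in the control (1.12, SE 0.07, and 0.17, SE 0.07). It passed the filter through the knockdown library alone. TFEB was too scarce to be compared, with 0.173 in the knockdown library, 0.391 with YK and 0.0445 in the control, the last on an estimated 5 fragments. SQSTM1, or p62, which tethers ubiquitinated cargo to autophagosomes, had 8.19 in the knockdown library, 2.24 with YK and 2.43 in the control (1.42, SE 0.07, and -0.08, SE 0.08). In these genes the knockdown library was highest apart from TFEB, whose highest value was with YK. With the level trend subtracted, the knockdown difference was 0.99 for TFE3, 0.23 for MITF and 1.03 for SQSTM1, and on the deposited values it was -0.26 for TFE3 and -0.34 for SQSTM1. RNA levels do not show where these factors lie in the cell, which is how mTORC1 is known to regulate TFEB and TFE3.

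Directly between the treated libraries, 29 of the 39 lysosomal genes compared were lower with YK than in the knockdown library and none was higher, against 15.4% of all genes lower and 15.7% higher. The median difference was -1.55. It was -3.65 for CTSA, -3.14 for TPP1 and -3.10 for PSAP. CTSK, at 0.75, was the gene with a positive difference. This comparison shares the knockdown library with the one against control, so it is not a separate observation of the knockdown library. CTSF, CTSO, GAA, MAN2B1, MCOLN1 and MITF passed the filter through the knockdown library alone and so had to be highest there. Of these, CTSF, CTSO, MAN2B1 and MCOLN1 were among the genes called lower with YK. With the filter on the YK library, which leaves all of them out, the median was -1.55 against 0.11 for all genes. That filter uses a library of this comparison.

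Genes of the same compartment outside the 45 were read from lists drawn up by role, with earlier results of these data known. Of 25 other lysosomal hydrolases compared, 17 were higher in the knockdown library and none was lower (median 1.30). After subtraction of the level trend 13 were higher, against 15% of all genes. MANBA, GALC, RNASET2 and PLA2G15 passed the filter through the knockdown library alone, and with the filter on the YK library 13 of 21 were higher (median 1.10). The lowest were CTSV at -0.82 and PPT1, a thioesterase, at -0.52. With YK, the thiol reductase IFI30 was the single one higher, with 3.02 scaled FPKM in the knockdown library, 6.45 with YK and 1.67 in the control, a YK difference of 1.48. Of 9 other membrane proteins compared, 4 were higher in the knockdown library and none was lower (median 0.69), led by LAPTM4A at 2.31 and LAPTM4B at 2.25. Beside these lists, 18.7% of all genes compared were higher and 17.3% lower, or 14.9% and 18% with the filter on the YK library.

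The mannose 6-phosphate route, which tags and sorts new hydrolases to the lysosome, had 5 of 8 genes higher in the knockdown library and none lower (median 1.36). With the filter on the YK library, which leaves out GGA1, 4 of 7 were higher. Under these filters 18.7% and 14.9% of all genes were higher. SORT1, the sorting receptor sortilin, had 44.9 scaled FPKM in the knockdown library, 2.67 with YK and 1.90 in the control (3.98). IGF2R, the large mannose 6-phosphate receptor, had 21.3 in the knockdown library, 2.15 with YK and 0.856 in the control (3.59). Both were far higher in the knockdown library, whereas the small receptor M6PR was at 0.68.

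Genes of mTORC1, the Rag GTPases and their regulators, some of which restrain mTORC1 (NPRL2 among them), went both ways. Of 20 compared, the knockdown library had 6 higher and 3 lower than the control (median 0.46), beside 18.7% of all genes higher and 17.3% lower. FNIP1, among those higher, passed the filter through the knockdown library alone. With the filter on the YK library 5 of 19 were higher and 3 lower (median 0.36), against 14.9% of all genes higher and 18% lower. The counts were 4 higher and 1 lower with the level trend subtracted, against 15% and 10.2% of all genes. They were 2 higher and 3 lower with level, length and GC content subtracted, against 12.8% and 12.6%. FLCN was at 1.30 and RRAGC at 1.29, while LAMTOR2 and NPRL2 were at -1.39 and MLST8 at -1.26. LAMTOR2 had 82.1 scaled FPKM in the knockdown library, 309 with YK and 217 in the control. Of 22 autophagy genes compared, 8 were higher and none was lower (median 0.68), against 18.7% of all genes higher and 17.3% lower. However, ULK1, ATG9A, WIPI1, UVRAG and VPS18 passed the filter through the knockdown library alone. With the filter on the YK library 4 of 17 were higher (median 0.12), against 14.9% of all genes. With level, length and GC content subtracted, 5 of 22 were higher and none was lower (median 0.31), against 12.8% of all genes higher and 12.6% lower. OPTN, an autophagy receptor, was at 1.87 and GABARAPL2 was lowest at -0.84. None of the membrane, sorting, mTORC1 or autophagy genes compared passed the threshold with YK.

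**Figure D4:**
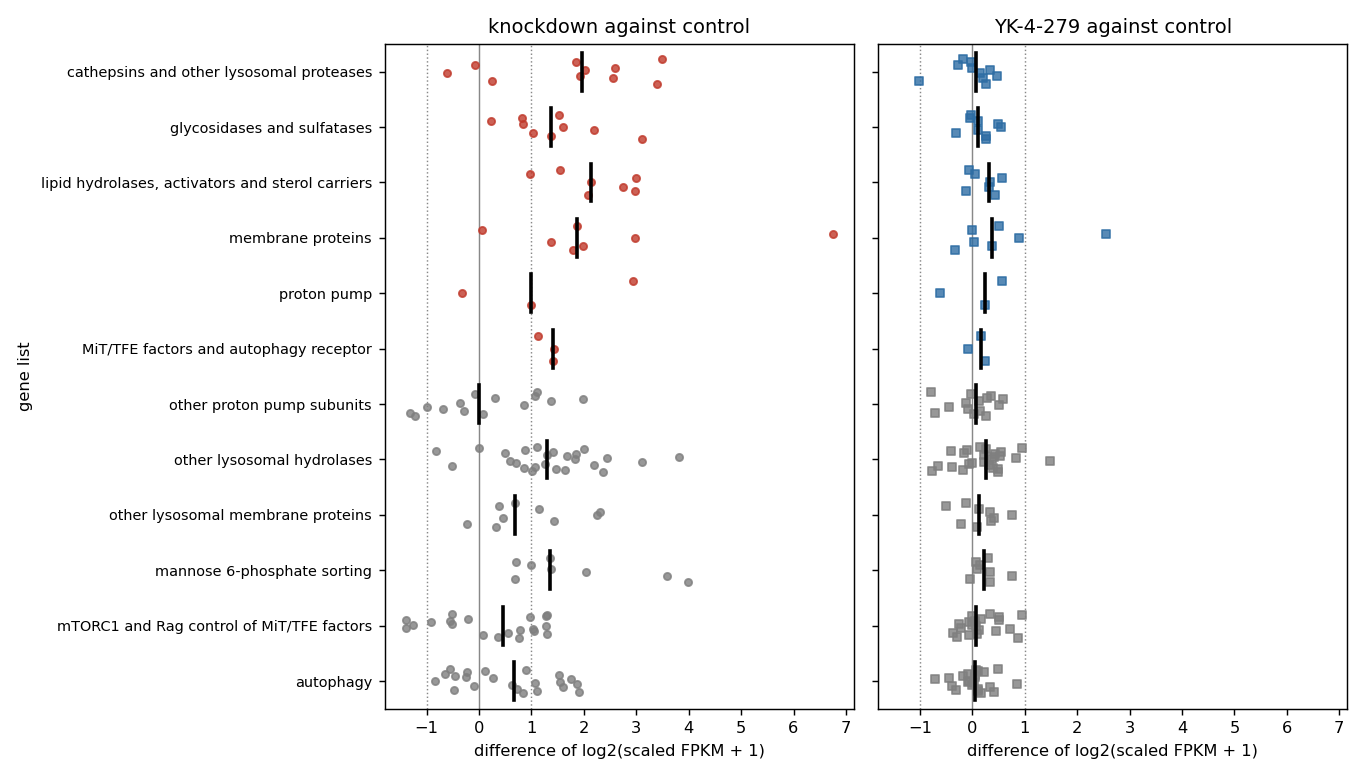
Difference of log2(scaled FPKM + 1) from the control for each gene compared, by list, in the knockdown (left) and YK (right) libraries, with the list's median as a black bar and dotted lines at the threshold of 1. The 6 lists of the 45 genes are coloured and the lists of related genes are grey, and in the knockdown library the medians run from -0.0018 for the other pump subunits to 2.14 for the lipid genes.

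The letters of the promoters were then read in the window of 250 bases before to 50 bases after each RefSeq start site, which the table gave for 33 of the 45 genes in 51 windows. On either strand, CACGTG, the core of the CLEAR element, was in the windows of 11 of these 33 genes (33.3%), against 13.2% of all genes compared that have a window. By window it was 12 of 51 (23.5%), against 9.67% of the 11085 windows of the genes compared and 7.26% of all 35116 windows of the same length. TCACGTG, which contains CACGTG and so overlaps it, was found in 10 of the 33 genes. CACGTG was in 8 of 23 genes higher in the knockdown library (34.8%) and in 3 of 10 not called higher (30%). Those 10 are not the 10 within the threshold, since they include CTSH, CTSZ and TFEB, which were too scarce to be compared. The shares of these groups were close. CATGTG was in 5 of the 33 genes (15.2%), against 9.24% of the genes compared, and these 5 were GPNMB, CTSA, TPP1, CD63 and SCARB2. A match is only a run of letters, and its absence says nothing of any factor.

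These stretches are shown because their genes were well above the control in the knockdown library and hold a match. For NEU1 the level rests on what is joined with SLC44A4. Capitals mark CACGTG, or CATGTG and its complement in TPP1. All are read 5′ to 3′ along the gene's own strand in GRCh38.p14: CTSA at chr20:45891273-45891335 (plus), TPP1 at chr11:6619405-6619462 (minus), NEU1 at chr6:31862922-31862967 (minus), LAMP1 at chr13:113297027-113297122 and chr13:113297191-113297263 (plus), CTSD at chr11:1763949-1763994 (minus) and MCOLN1 at chr19:7522563-7522635 (plus).
CTSA: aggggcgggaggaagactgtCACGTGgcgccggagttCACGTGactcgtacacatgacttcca
TPP1: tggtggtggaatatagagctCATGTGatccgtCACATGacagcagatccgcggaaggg
NEU1: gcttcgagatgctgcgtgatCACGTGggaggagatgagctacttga
LAMP1: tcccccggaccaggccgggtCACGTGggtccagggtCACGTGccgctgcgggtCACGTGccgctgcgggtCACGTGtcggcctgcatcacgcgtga
LAMP1: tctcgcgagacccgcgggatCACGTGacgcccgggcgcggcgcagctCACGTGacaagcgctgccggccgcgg
CTSD: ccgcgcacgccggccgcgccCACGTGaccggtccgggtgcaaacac
MCOLN1: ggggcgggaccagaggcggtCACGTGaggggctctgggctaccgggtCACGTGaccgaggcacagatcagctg

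LAMP1 carried 6 copies of CACGTG in these 2 stretches, and CTSA and MCOLN1 carried 2 copies each. As a contrast, GAA at chr17:80101485-80101575 (plus) and CLN3 at chr16:28492050-28492124 (minus) also carry 2 copies each, yet GAA lay within the threshold and CLN3 was level between the knockdown library and the control.
GAA: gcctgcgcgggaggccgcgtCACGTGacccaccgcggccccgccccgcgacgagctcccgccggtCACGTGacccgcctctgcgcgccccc
CLN3: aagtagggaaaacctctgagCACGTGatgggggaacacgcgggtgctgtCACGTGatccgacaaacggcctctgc

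Other cell types use several of these genes heavily, so their markers were read beside the counts. The 8 macrophage markers summed to 2.62 scaled FPKM in the knockdown library, 2.60 with YK and 1.13 in the control, and none reached 1 in any library; TYROBP was at 0 with YK and in the control. The 5 melanocyte markers, of the lineage in which MITF and GPNMB are best known, summed to 0.749 in the knockdown library, 1.06 with YK and 0.354 in the control, again with none at 1. The 7 fibroblast markers summed to 170 in the knockdown library, 32.3 with YK and 27.8 in the control, and none was at 0 in every library. Past the threshold, 5 were higher and DCN was lower in the knockdown library, against 18.7% of all genes higher and 17.3% lower. With the filter on the YK library 4 of 6 were higher and 1 was lower, against 14.9% and 18% of all genes. With the level trend subtracted 4 of the 7 were higher and 2 lower, against 15% and 10.2%. The collagen gene COL3A1 made up most of the sum, with 112 in the knockdown library, 3.40 with YK and 1.13 in the control, while DCN had 1.70 in the knockdown library, 5.76 with YK and 8.82 in the control. The part of the fibroblast genes in the lysosomal result was not tested. In a bulk culture, fewer cells of a type and less RNA per cell cannot be told apart. The 29 genes higher in the knockdown library had a median transcript GC content of 51.6% and the 10 within the threshold 50.4%, against 46.1% over all genes compared. When level, transcript length and GC content were fitted together and subtracted, 26 lysosomal genes were higher in the knockdown library and none was lower, against 12.8% of all genes higher and 12.6% lower, and 24 of the 29 stayed past the threshold.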

How the data were processed

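The authors deposited 1 FPKM value per locus and library. Per the submitters' processing notes, CASAVA 1.8.2, TopHat and Cufflinks 2.2.1 were used with GRCh37 (hg19). Annotation, strand setting and multi-mapped reads are not stated by any source used here; antisense or pseudogene reads (IDS has a known pseudogene) may not be separable. Per the labels' protocols, total RNA was made into cDNA with a SMARTer PCR kit. The knockdown values are headed dEF, its title reads shEF, and its labels set the group.

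Rows of a symbol were summed. Libraries were multiplied by 1.44 (knockdown), 2.12 (YK) and 0.325 (control), set over genes above 0 in all libraries with a mean deposited FPKM of at least 1. Pseudocount, filter and threshold were 1. Counting errors used the FPKM of 1 fragment in 1 kb, estimated from scarce olfactory receptor genes at 0.0168 (knockdown), 0.0126 (YK) and 0.0651 (control), with GENCODE 29 lengths. Python 3.11.15, numpy 2.4.6, pandas 2.3.3 and scipy 1.17.1 were used, and the code was tested on simulated data. Members and lists were chosen with earlier results of these data known. Every gene past the threshold is named with its values; of related lists, up to 2 at each end, apart from items that are not reported here.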

Additional observations from a re-analysis of the deposited data

How the results depend on the processing

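The scaling assumes that the median gene was equal, and counting errors hold nothing of the spread between cultures. On deposited FPKM with no scaling, the knockdown library had 8 genes above the threshold and 8 below it (median -0.13). This reversed CTSB (-0.25), CTSL1 (-0.10), GUSB (-0.13), IDS (-0.67), ASAH1 (-0.57), LAMP2 (-0.72), CD63 (-0.28), SCARB2 (-0.28), TFE3 (-0.26) and SQSTM1 (-0.34). With YK, 32 of 37 were lower on that scale (median -2.14), where the median of all genes was -2.20, so these genes lay near the whole library. A filter of 5 left fewer genes, with 15 higher in the knockdown library and 16 lower with YK than there. Summed-FPKM scaling gave a knockdown median of 2.24. Setting the scale by all named genes, added after seeing the data, gave medians of 1.18 for the knockdown and -0.26 for YK, with 1 gene lower in the knockdown library, 2 lower with YK and 23 of the 29 higher calls kept. With YK, 4 genes were higher at a pseudocount of 0.1, 2 at 0.5 and 6 with centred deposited ratios, which also gave 2 lower. Upper quartile scaling and level subtraction gave 0 lower. The counts at other pseudocounts, the filter of 5 and other scalings stand without the share of all genes under the same setting. They do not tell a change in these genes from a change in the rule. The causes were not tested. GPNMB was higher in both treated libraries under every setting. The filter on the YK library and the fit on level, length and GC were also added after seeing the data. No paired analysis was possible because each group has 1 library with no replicate number.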

Other observations

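Cystatins, which inhibit cysteine cathepsins, were read beside their targets. Of 7 cystatin genes, 2 were compared. CST3, the secreted cystatin C, had 11.2 scaled FPKM in the knockdown library, 1.90 with YK and 1.90 in the control, a knockdown difference of 2.07. CSTB, the cytosolic cystatin B, had 15.2 in the knockdown library, 34.6 with YK and 24.8 in the control, with differences of -0.67 and 0.47. CST1, CST4 and CST6 were listed at 0 in all 3 libraries.

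The order of the 45 genes by level was led by PSAP and CD63 in every library. The third place belonged to NPC2 in the knockdown library and to CTSC with YK and in the control.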
